A study of Mus musculus with 18 samples.

Results

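The kidney cortex of BALB/c mice, labelled as a strain resistant to anti-glomerular basement membrane (anti-GBM) disease, was compared with that of DBA1 mice, labelled as a sensitive strain. The comparison rests on 8 of the 18 arrays of the study, which come from 6 of its 15 mice, 3 of each strain. These were the arrays named BALB/C_F1 to F4 and DBA1_F1 to F4, and the fourth array of each strain, described as a repeat of the first, was averaged with it as 1 mouse. All mice were 2 months old and had been challenged with antibodies against the GBM, and no unchallenged mice are among the arrays, so differences that the strains had before the challenge and differences in their response to it are measured together. The 3 mice of 129/svj, a further sensitive strain measured alongside, helped to estimate the spread between mice and were not pooled with DBA1. The RNA was total RNA of the cortex read on an Illumina mouse BeadChip, on which a bead-bound probe for each transcript gives 1 signal and a detection p-value against negative control beads. Sex is not given in the labels.

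In anti-GBM nephritis, antibodies bind the basement membrane of the glomerulus, and complement, Fc receptors, and infiltrating leukocytes then injure the filter and, later, the tubules around it. The renal cortex is made up mostly of proximal tubules, which reabsorb solutes, make glucose, and burn fatty acids, with glomeruli, distal segments, and vessels between them. Inbred strains also differ in many renal transcripts without any challenge, and they carry different haplotypes of the major histocompatibility complex (MHC), the gene cluster that presents peptides to T cells.

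Markers of the labelled tissue were detected in every mouse. The phosphate transporter of the proximal tubule, Slc34a1, gave log2 signals of 13.78, 14.09, and 14.06 in the BALB/c mice and 14.00, 13.51, and 13.65 in the DBA1 mice. The thick limb transporter Slc12a1 lay between 13.15 and 13.51 in all 6 mice. Of the podocyte genes, Synpo and Nphs1 were tested, and neither passed, with adjusted p-values of 0.892 and 0.963. Lymphocytes could not be followed, because none of 6 marker genes with a probe passed the detection filter and Cd3e and Ptprc were below detection in all 6 mice. In RNA of a whole tissue, fewer cells of a type and less RNA per cell cannot be told apart.

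One mouse stood apart from its strain. DBA1 mouse 3 had correlations of 0.960 with DBA1 mice 1 and 2 over the tested probes, whereas these correlated with each other at 0.987 and the BALB/c mice with each other at 0.980 to 0.986. Mice of different strains correlated at 0.928 to 0.959, and the repeat arrays of mouse 1 at 0.988 in BALB/c and 0.989 in DBA1. DBA1 mouse 3 lay more than 1 log2 unit from the mean of its strain mates at 847 probes, against 139 probes for BALB/c mouse 3. It was kept in. For the lists described, counts that change without it are given both ways. Single calls were followed without it for 58 probes named by a fixed rule. Array medians lay between 119 and 152, with 30.5% to 32.9% of the probes detected.

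The expression profiles of the strains differed at many probes in both directions and to about the same extent. A probe was tested when at least 3 of the 6 mice had a detection p no higher than 0.05, which left 14729 of 46147 probes. Of these, 937 (6.36%) differed at an adjusted p below 0.05 in limma, 464 (3.15%) higher and 473 (3.21%) lower in BALB/c. The median difference over the tested probes was 0.02 on the log2 scale. The mice of the strains did not overlap at any of the 937 probes, but neither did they at 26.2% of all tested probes. At 538 of the 937 the difference was at least 2-fold, with 268 higher and 270 lower in BALB/c. Of 11708 probes detected in all 6 mice, 599 (5.12%) differed. Without DBA1 mouse 3, 933 probes passed, of which 748 were among the 937. A gene symbol could be given to 6321 of the tested probes and 451 of those that differed, and the genes described here come from these.

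**Figure D1:**
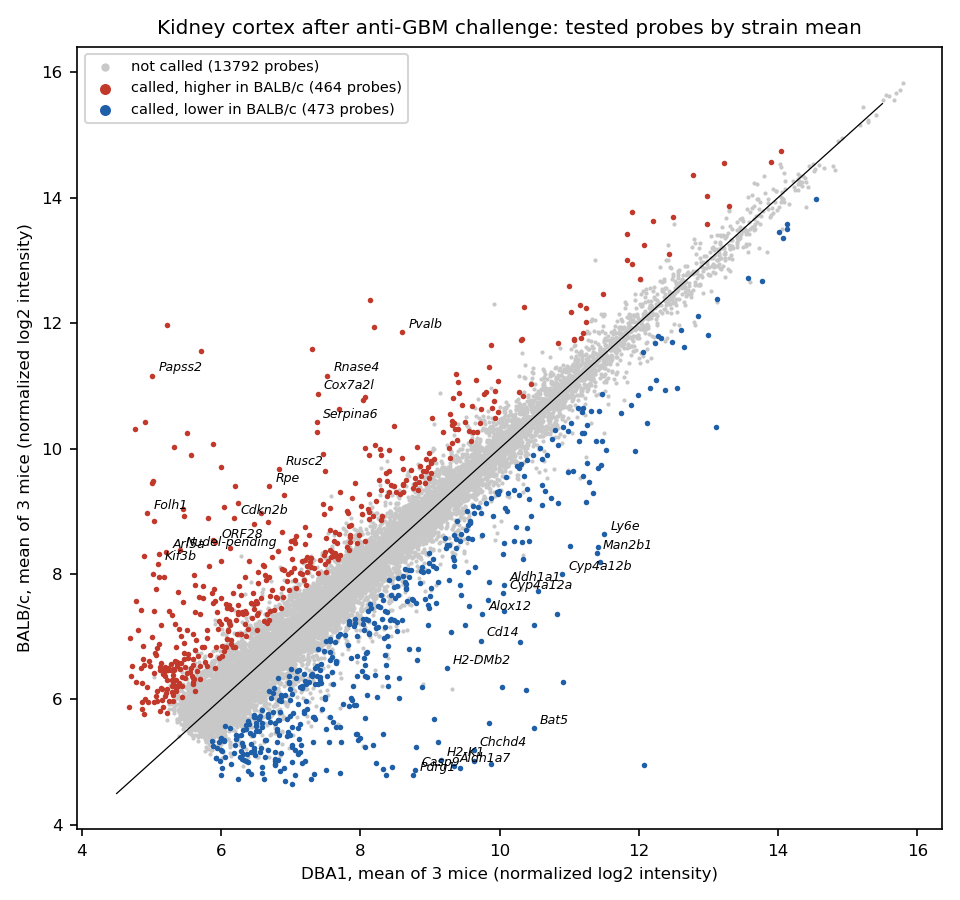
Mean log2 signal of the 3 DBA1 mice (x axis) against the 3 BALB/c mice (y axis) for each of the 14729 tested probes, with probes past an adjusted p of 0.05 in colour. Most probes lie along the diagonal, and the 464 probes above it and 473 below it include some that are near the background in one strain and bright in the other.

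The largest differences were at probes that were bright in one strain and at background in the other. In all 3 mice of one strain and no mouse of the other, 356 of the tested probes (2.42%) were detected, 171 in BALB/c and 185 in DBA1, and the adjusted p was below 0.05 for 227 of them, 119 detected in BALB/c and 108 in DBA1. The difference of such a probe is taken against background signal, and its fold is given as a lower bound, in which the mean of the bright strain is set against the dimmest signal that still counted as detected on each array of the other strain.

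Papss2, which makes the sulphate donor for sulphation reactions, was 11.33, 11.01, and 11.16 in BALB/c and 5.17, 5.12, and 4.74 in DBA1, at least 44.7-fold higher in BALB/c (difference 6.15, SE 0.19, adjusted p = 4.85e-08). It was bright in 129/svj, at 11.26, 11.81, and 11.30. Folh1, a peptidase that releases glutamate from folate and from peptides, gave 9.52, 8.70, and 8.70 in BALB/c and 4.89, 4.93, and 5.01 in DBA1 (at least 9.81-fold higher in BALB/c, adjusted p = 4.43e-06). Arl5a, a small GTPase of the Golgi, and Kif3b, a motor subunit that carries cargo into cilia, were also detected in BALB/c and not in DBA1, with folds of at least 6.37 for Arl5a and at least 5.57 for Kif3b. Nudel-pending, an old name of a dynein regulator, was at least 6.50-fold higher.

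In the other direction, Bat5, a gene of the MHC region, was 5.58, 5.56, and 5.47 in BALB/c and 10.66, 10.43, and 10.38 in DBA1, at least 28.0-fold lower in BALB/c (difference -4.95, SE 0.13, adjusted p = 3.31e-08). Chchd4, which helps to import proteins into the space between the mitochondrial membranes, gave 5.25, 5.15, and 5.18 in BALB/c and 9.74, 9.82, and 9.32 in DBA1 (at least 15.4-fold lower, adjusted p = 1.15e-07). Casp9, the initiator caspase of the mitochondrial route to cell death, gave 4.96, 4.87, and 4.82 in BALB/c and 8.90, 8.74, and 8.72 in DBA1 with 1 probe (at least 8.60-fold lower, adjusted p = 4.85e-08). The second tested probe of Casp9 did not follow it. This probe had 7.01, 6.67, and 6.42 in BALB/c and 5.89, 6.42, and 6.21 in DBA1, a difference of 0.53 with an adjusted p of 0.223. Pdrg1, a small protein that rises with DNA damage, was at least 8.45-fold lower in BALB/c. The remaining members of the 6 lowest, Aldh1a7 and H2-K1, are described with their families.

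**Figure D2:**
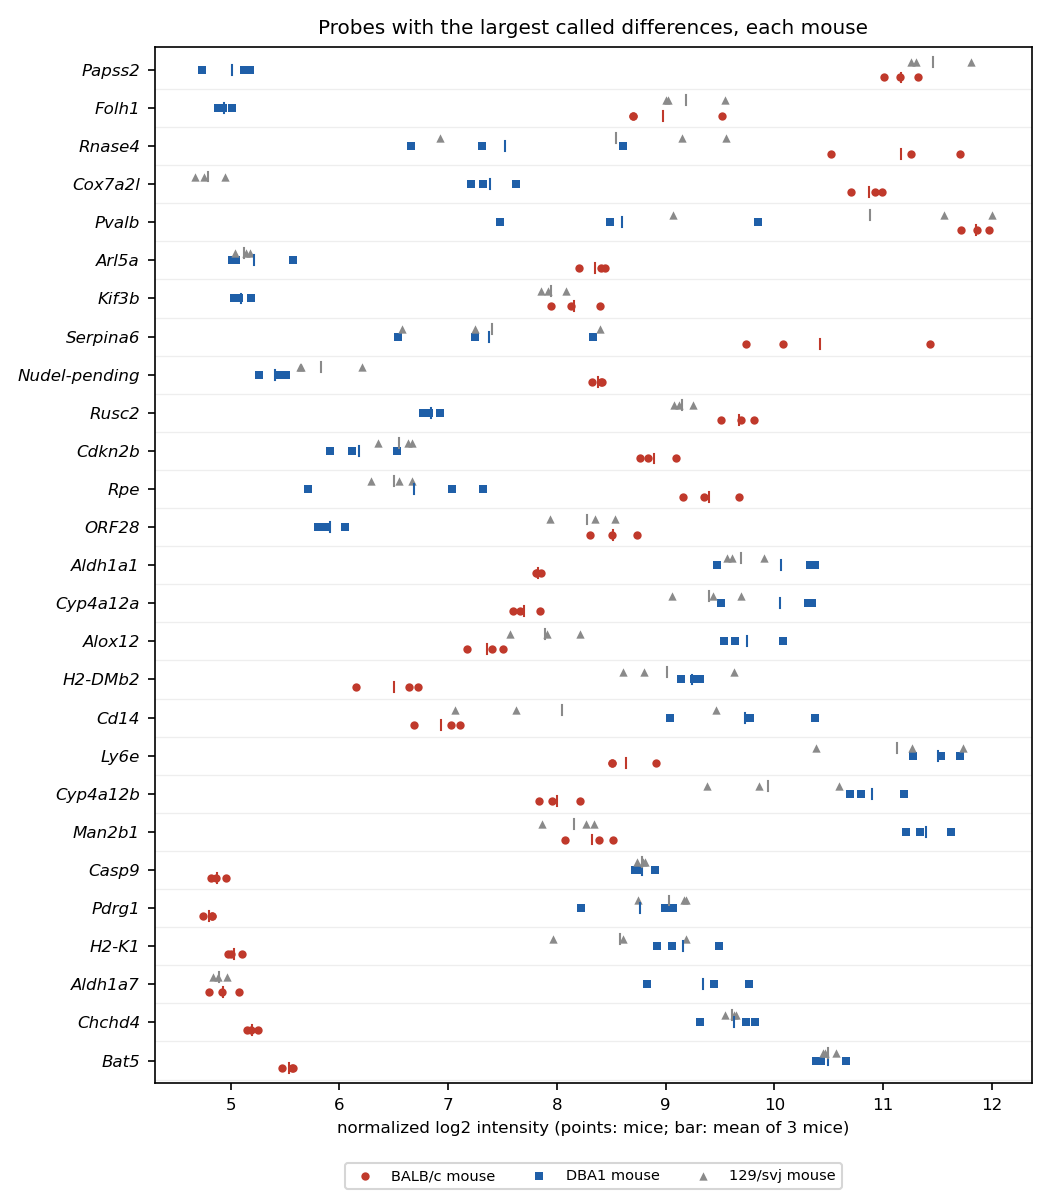
Normalized log2 signal (x axis) of each BALB/c, DBA1, and 129/svj mouse (points, with a bar at the strain mean) at the probes with the largest differences, among probes detected in 1 strain alone and among probes detected in all 6 mice. BALB/c and DBA1 are apart for each probe shown, with the widest gap for Papss2, while Rnase4 and Pvalb have the widest spread of DBA1 mice.

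Among probes detected in all 6 mice, those with the largest excess in BALB/c were Rnase4, Cox7a2l, Pvalb, Serpina6, Rusc2, Cdkn2b, Rpe, and ORF28, which RefSeq now lists as Dnajc28. Cox7a2l, which takes part in joining respiratory complexes into larger assemblies, had log2 signals of 10.93, 10.99, and 10.71 in BALB/c and of 7.62, 7.32, and 7.21 in DBA1 (difference 3.49, SE 0.16, adjusted p = 9.18e-07). Rusc2, a trafficking adaptor, gave 9.81, 9.70, and 9.51 against 6.77, 6.82, and 6.93 (difference 2.83, SE 0.13, adjusted p = 1.23e-06), and Cdkn2b, an inhibitor of cyclin D kinases, 9.09, 8.83, and 8.76 against 6.11, 5.91, and 6.53 (difference 2.71, SE 0.18, adjusted p = 1.34e-05). In each of these the gap between the strains was several times the spread of the mice. Rpe, an enzyme of the pentose phosphate pathway, was 9.16, 9.36, and 9.68 in BALB/c and 7.04, 7.32, and 5.71 in DBA1, where mouse 3 was the lowest. Its difference was 2.71 (SE 0.36, adjusted p = 0.0012), and 2.22 without that mouse.

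Other large differences had a wide spread within a strain. Rnase4, a secreted ribonuclease, was 11.70, 11.26, and 10.53 in BALB/c and 7.31, 6.66, and 8.61 in DBA1 (difference 3.64, SE 0.68, adjusted p = 0.0111), and its second probe was 2.89 higher in BALB/c (adjusted p = 0.0294). Serpina6, the corticosteroid-binding globulin, was 11.44, 10.08, and 9.74 against 8.33, 7.25, and 6.54 (difference 3.05, SE 0.59, adjusted p = 0.013). The mice of the strains did not overlap, as at 26.2% of all tested probes. The Rnase4 call was lost without BALB/c mouse 1 or mouse 2, with adjusted p-values up to 0.0513. Without DBA1 mouse 2, the adjusted p of Serpina6 rose to 0.0508.

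The probes with the largest deficit in BALB/c among those detected in all mice were Man2b1, Cyp4a12b, Ly6e, Cd14, H2-DMb2, Alox12, Cyp4a12a, and Aldh1a1. Man2b1, a lysosomal mannosidase that trims glycans, had log2 signals of 8.52, 8.39, and 8.08 in BALB/c and of 11.34, 11.21, and 11.63 in DBA1 (difference -3.07, SE 0.19, adjusted p = 5.41e-06). Ly6e, a membrane protein induced by interferons, gave 8.51, 8.50, and 8.91 in BALB/c and 11.28, 11.53, and 11.71 in DBA1 (difference -2.87, SE 0.30, adjusted p = 0.000281). All DBA1 mice lay at least 2 log2 units above all BALB/c mice for both genes.

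The genes of the MHC and of antigen presentation contained differences in both directions. Of 13 tested genes, 2 were higher and 7 were lower in BALB/c by the probe taken for the list, among the 7 H2-Q7, which another of its probes placed the other way, and their median difference was -1.35, beside 6.36% of all tested probes past the threshold and a median of 0.02. Without DBA1 mouse 3 the numbers were 2 and 6 with a median of -1.32, and without background correction the median was -0.81. H2-K1, a class I molecule that presents peptides from the cytosol, had log2 signals of 5.11, 4.97, and 5.00 in BALB/c and of 8.92, 9.06, and 9.49 in DBA1. It was detected in no BALB/c mouse and was at least 11.1-fold lower in BALB/c (difference -4.13, SE 0.28, adjusted p = 1.26e-05). Psmb9, a subunit that the immunoproteasome uses to cut such peptides, gave 5.12, 4.84, and 4.98 in BALB/c and 8.31, 8.13, and 8.24 in DBA1 (at least 5.82-fold lower, adjusted p = 7.95e-05). H2-D1, another class I molecule, was detected in every mouse, at 10.41, 10.42, and 10.37 in BALB/c and 11.91, 12.01, and 12.46 in DBA1 (difference -1.72, adjusted p = 0.0128), and its other probe differed by -1.98 (adjusted p = 0.00551). H2-T10, a class I molecule outside the classical group, had a difference of -1.35 (adjusted p = 0.00415).

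Class II molecules present peptides from endosomes. Cd74, the invariant chain that fills the class II groove during transport, gave log2 signals of 8.94, 8.95, and 9.49 in BALB/c and of 10.70, 10.58, and 11.25 in DBA1 (difference -1.72, SE 0.28, adjusted p = 0.00477), and its other probe differed by -1.56 (adjusted p = 0.0125). H2-DMb2, a chain of the chaperone that exchanges the invariant chain peptide for others, was 6.15, 6.64, and 6.72 in BALB/c and 9.27, 9.32, and 9.14 in DBA1 (difference -2.74, SE 0.26, adjusted p = 0.000138). H2-Eb1, the beta chain of the class II molecule E, went the other way. It was 7.69, 7.64, and 8.51 in BALB/c and 5.42, 5.32, and 4.79 in DBA1, where no mouse was detected, so it was at least 4.81-fold higher in BALB/c (difference 2.77, SE 0.28, adjusted p = 0.000209). In 129/svj it was at 9.81, 9.53, and 10.24, above every BALB/c mouse. H2-Ke2, a prefoldin subunit that lies in the MHC and does not present peptides, was 0.72 higher in BALB/c (adjusted p = 0.0241).

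Psmb8, Tapbp, H2-Ob, and Ifi30 did not pass. Psmb8, a further immunoproteasome subunit, was 6.60, 6.67, and 6.88 in BALB/c and 8.28, 8.16, and 8.70 in DBA1, with a difference of -1.66 and an adjusted p of 0.0983. Its mice did not overlap, as at 26.2% of all tested probes. Tapbp, H2-Ob, and Ifi30 differed by -0.23, -0.04, and -0.03, with overlapping mice. For H2-Q7 the probes had opposite signs, one at -1.18 (adjusted p = 0.0462) and another at 1.01 (adjusted p = 0.00274), so no direction can be given. The class I genes resemble one another in sequence, and binding of one transcript to the probe of another, or a base that differs between the strains under a probe, cannot be told apart here from a difference in RNA.

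The promoters of H2-DMb2 and H2-Eb1 are printed because these class II genes differed in opposite directions. They are the RefSeq sequences of the reference strain, build GRCm38.p6, windows of 300 bases around the start of transcription, read on the plus strand at chr17:34144999-34145298 and chr17:34305617-34305916. Capitals mark TGATTGG, the letters of the Y box, an inverted CCAAT element of class II promoters, and TGATGCT, a run that was looked for after both windows had been seen.
H2-DMb2: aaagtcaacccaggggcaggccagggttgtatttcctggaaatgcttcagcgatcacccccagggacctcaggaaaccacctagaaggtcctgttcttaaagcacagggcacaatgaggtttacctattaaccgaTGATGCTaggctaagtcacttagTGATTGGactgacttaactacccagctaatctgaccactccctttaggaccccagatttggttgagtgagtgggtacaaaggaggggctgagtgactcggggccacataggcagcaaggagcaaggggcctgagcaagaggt
H2-Eb1: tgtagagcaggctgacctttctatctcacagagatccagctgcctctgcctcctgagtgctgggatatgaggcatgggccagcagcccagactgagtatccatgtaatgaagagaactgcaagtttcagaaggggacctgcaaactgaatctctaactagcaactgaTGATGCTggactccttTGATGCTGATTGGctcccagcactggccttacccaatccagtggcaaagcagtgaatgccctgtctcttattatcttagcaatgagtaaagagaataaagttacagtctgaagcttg
Both windows hold both runs of letters, and in H2-Eb1 the last base of one TGATGCT is the first base of TGATTGG. Over 32851 promoter windows of the same length, TGATTGG or its reverse complement CCAATCA was found in 2568 (7.82%), TGATGCT or AGCATCA in 1404 (4.27%), and both in 103 (0.314%). Because TGATGCT was looked for after both windows had been seen, these shares do not show that the pair of runs is unusual in them. The window of H2-DMb1 also held both runs. A match of letters is a description of the reference sequence, and the sequences of BALB/c and DBA1 were not analysed here.

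**Figure D3:**
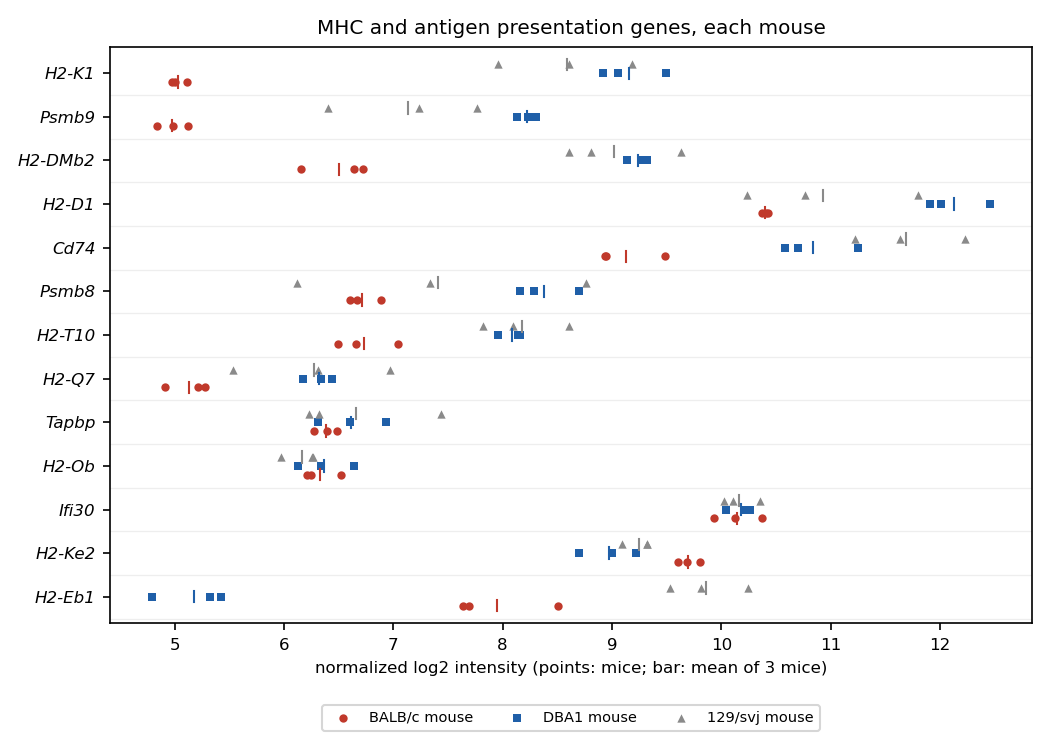
Normalized log2 signal (x axis) of each BALB/c, DBA1, and 129/svj mouse (points, with a bar at the strain mean) for the 13 tested genes of the MHC and of antigen presentation. DBA1 lies above BALB/c for H2-K1, Psmb9, H2-DMb2, H2-D1, Cd74, and H2-T10, and below it for H2-Eb1 and H2-Ke2.

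The aldehyde dehydrogenases Aldh1a1 and Aldh1a7, close relatives that oxidise aldehydes and, in the case of Aldh1a1, retinal to retinoic acid, were both lower in BALB/c. Aldh1a1 had log2 signals of 7.85, 7.82, and 7.81 in BALB/c and of 10.33, 10.38, and 9.47 in DBA1 (difference -2.24, SE 0.23, adjusted p = 0.000237), and 129/svj was also high, at 9.61, 9.90, and 9.57. Aldh1a7 was 5.08, 4.92, and 4.80 in BALB/c and 9.44, 9.76, and 8.83 in DBA1, detected in every DBA1 mouse and in no BALB/c mouse (at least 12.7-fold lower in BALB/c, adjusted p = 1.55e-06). In 129/svj Aldh1a7 was at background, at 4.97, 4.84, and 4.89, so the 2 genes did not follow each other across the 3 strains. Their promoters are shown because the genes lie near each other and are alike in sequence upstream as well. The windows, from RefSeq on build GRCm38.p6, are chr19:20601718-20602017 on the plus strand, 1 of 2 starts that the table gives for Aldh1a1, and chr19:20727507-20727806 on the minus strand. Capitals mark the longest run that they share.
Aldh1a1: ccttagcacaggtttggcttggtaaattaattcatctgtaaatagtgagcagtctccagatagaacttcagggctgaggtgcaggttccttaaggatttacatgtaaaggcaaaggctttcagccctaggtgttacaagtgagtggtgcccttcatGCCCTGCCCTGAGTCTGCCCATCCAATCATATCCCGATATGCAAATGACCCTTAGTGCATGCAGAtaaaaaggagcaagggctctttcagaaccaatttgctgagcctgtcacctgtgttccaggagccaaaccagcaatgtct
Aldh1a7: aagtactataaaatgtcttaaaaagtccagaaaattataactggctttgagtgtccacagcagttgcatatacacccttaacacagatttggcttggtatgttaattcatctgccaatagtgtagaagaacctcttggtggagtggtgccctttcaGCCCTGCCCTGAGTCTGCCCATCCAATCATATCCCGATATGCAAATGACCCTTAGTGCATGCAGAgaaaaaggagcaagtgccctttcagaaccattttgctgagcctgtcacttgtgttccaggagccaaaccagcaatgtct
The shared run is 65 bases long and begins at base 157 of each window, and without gaps 177 of 300 bases (59.0%) were identical. Whether the probes of one gene also read the other was not tested.

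The cytochrome P450 enzymes hydroxylate fatty acids, steroids, and drugs. Of 9 tested P450 genes, 0 were higher and 3 were lower in BALB/c, with a median of -0.49, beside 3.15% higher and 3.21% lower and a median of 0.02 over all tested probes. Cyp4a12a and Cyp4a12b, hydroxylases that make the vasoactive lipid 20-HETE and are known to be higher in male than in female kidneys, were both lower. Cyp4a12b gave log2 signals of 8.22, 7.96, and 7.84 in BALB/c and of 10.80, 11.20, and 10.70 in DBA1 (difference -2.89, SE 0.28, adjusted p = 0.000159). Cyp4a12a gave 7.66, 7.60, and 7.85 against 10.35, 10.31, and 9.51 (difference -2.35, SE 0.24, adjusted p = 0.000248). The mice did not overlap for either, as at 26.2% of all tested probes. The genes are so alike that their probes may read both. Cyp7b1, which hydroxylates oxysterols, was at background in BALB/c, at 5.26, 5.48, and 5.31, and was 6.65, 8.85, and 8.40 in DBA1 (at least 4.86-fold lower in BALB/c, adjusted p = 0.0125). Cyp24a1, which degrades vitamin D, was 5.51, 7.54, and 5.71 against 9.06, 8.53, and 9.13, a difference of -2.66 that did not pass (adjusted p = 0.108).

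The sex of the mice bears on these genes. Over all tested probes, 3.21% were lower in BALB/c. Of 4 tested genes known to differ between male and female kidneys, 2 were lower in BALB/c, which were Cyp4a12a and Cyp7b1, and the median was -1.74. The others were Kap, a kidney protein induced by androgens (difference -0.27, adjusted p = 0.525), and Hsd11b1, which reactivates glucocorticoids (difference -1.13, adjusted p = 0.131). The probes of Y-linked genes gave no answer. Those named Eif2s3y, Jarid1d, and Smcy, the last a further name of Jarid1d, were below detection in all mice. Uty was near background, at 5.60 to 6.07 in the 6 mice. The part of sex in these differences was not tested.

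Of 21 other detoxification enzymes, 2 were higher and 4 were lower in BALB/c, beside 3.15% higher and 3.21% lower over all tested probes. The higher ones were Ugt2b34, a glucuronosyltransferase, 2.82-fold (adjusted p = 0.00607) and Akr1e1, an aldo-keto reductase, by 1.80 on the log2 scale (adjusted p = 0.0113). The lower ones were Aldh1a1 and Aldh1a7, Ces3, a carboxylesterase (difference -1.10), and Aldh8a1, a further aldehyde dehydrogenase (difference -0.74). Without DBA1 mouse 3, 3 were higher and 3 were lower, and the Aldh8a1 call was lost. Among 10 genes of cholesterol synthesis and uptake, Sqle, which makes squalene epoxide, was the 1 that passed, beside 6.36% of all tested probes. It was 5.69, 5.20, and 5.09 in BALB/c, detected in 1 of 3 mice, and 7.66, 7.62, and 7.38 in DBA1 (difference -2.23, SE 0.21, adjusted p = 0.000131). The smallest difference of Sqle among the alternatives was -1.06.

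In the renin-angiotensin system, which sets blood pressure and the pressure in the glomerulus, renin and its substrate were lower in BALB/c. Of 4 tested genes, 0 were higher and 2 were lower, beside 3.15% higher and 3.21% lower over all tested probes. Ren1, renin itself, had log2 signals of 11.84, 11.50, and 12.11 in BALB/c and of 12.89, 12.93, and 13.14 in DBA1 (difference -1.17, SE 0.18, adjusted p = 0.00366). Its second probe gave 9.23, 9.21, and 9.64 against 10.33, 10.57, and 10.30 (difference -1.04, adjusted p = 0.00329). Agt, the precursor that renin cuts, was 5.44, 4.84, and 5.68 in BALB/c, detected in 1 of 3 mice, and 7.37, 8.08, and 7.71 in DBA1, detected in all (difference -2.40, SE 0.24, adjusted p = 0.000213). The converting enzyme Ace was 0.85 higher in BALB/c with the probe taken for the list, which did not pass (adjusted p = 0.0628), and 0.63 higher with another, which did (adjusted p = 0.0463).

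Pcx, Slc37a4, and G6pc, which take part in the output of glucose by the kidney, were higher in BALB/c. Of 10 genes of gluconeogenesis and glycolysis, these 3 were higher and 0 were lower, with a median of 0.36, beside 3.15% higher and 3.21% lower over all tested probes, and the same counts were found without DBA1 mouse 3. Pcx, which carboxylates pyruvate in the first step of gluconeogenesis, gave log2 signals of 7.88, 7.56, and 7.48 in BALB/c and of 5.72, 5.49, and 5.86 in DBA1 (difference 1.95, SE 0.23, adjusted p = 0.000562). It was detected in 2 of 3 DBA1 mice, and its smallest difference among the alternatives was 0.95. Slc37a4, which carries glucose 6-phosphate into the endoplasmic reticulum, gave 11.45, 11.46, and 11.00 against 9.94, 9.68, and 9.94 (difference 1.45, SE 0.20, adjusted p = 0.00198). G6pc, which releases the glucose there, was 13.93, 13.65, and 14.00 against 13.21, 13.20, and 13.45 (difference 0.57, SE 0.14, adjusted p = 0.0402). No mice overlapped for these genes, as at 26.2% of all tested probes. The G6pc call was lost without BALB/c mouse 1 or 3 and without DBA1 mouse 1 or 2. Pck1 and Fbp1, which act between Pcx and G6pc, differed by -0.12 (adjusted p = 0.875) and 0.49 (adjusted p = 0.16).

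Few genes of fatty acid oxidation and the respiratory chain passed, and those that did were higher in BALB/c. Of 11 genes of fatty acid oxidation and the peroxisome, 2 were higher and 0 were lower, with a median of 0.43, beside 6.36% of all tested probes past the threshold. Acaa2, the mitochondrial thiolase of the last step of beta oxidation, was 11.71, 11.80, and 11.45 in BALB/c and 10.29, 9.80, and 9.53 in DBA1 (difference 1.78, SE 0.20, adjusted p = 0.000464). Decr2, a peroxisomal reductase, was 1.03 higher (adjusted p = 0.0447) and was not called without DBA1 mouse 3, or without any other single mouse. Of 34 genes of the respiratory chain, 3 were higher and 0 were lower, again beside 6.36% of all tested probes past the threshold. The 3 were Cox7a2l, Cox8b, and Ndufb8, and the median was 0.15. The Ndufb8 call was lost without BALB/c mouse 2 or 3 or DBA1 mouse 1, with adjusted p-values up to 0.0784. The form of a complex IV subunit that heart and muscle use, Cox8b, spread widely in DBA1, at 7.57, 8.64, and 6.27 against 9.20, 9.94, and 9.79 in BALB/c (difference 2.15, adjusted p = 0.0298). Without DBA1 mouse 3, its lowest mouse, the difference was 1.54 (adjusted p = 0.0333), and the call was lost when any 1 of the BALB/c mice or DBA1 mouse 1 was left out, with adjusted p-values up to 0.119.

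In the nephron segments, Pvalb, a calcium-binding protein of the early distal convoluted tubule, and Calb1, the calbindin of the later part, were higher in BALB/c. Pvalb had log2 signals of 11.72, 11.97, and 11.87 in BALB/c and of 9.85, 8.49, and 7.47 in DBA1 (difference 3.25, SE 0.74, adjusted p = 0.0294). Calb1 had 10.78, 10.67, and 10.19 against 9.47, 8.94, and 9.47 (difference 1.25, SE 0.31, adjusted p = 0.0423). Neither passed without DBA1 mouse 3, with adjusted p-values of 0.0777 and 0.061. The Pvalb call was also lost without any 1 BALB/c mouse or DBA1 mouse 2, with adjusted p-values up to 0.105. The Calb1 call was lost without any single mouse, with adjusted p-values up to 0.153. The transporters that define the segments, Slc12a1 of the thick limb and Slc12a3 of the distal convoluted tubule, differed by 0.12 (adjusted p = 0.715) and -0.13 (adjusted p = 0.865), with overlapping mice. Of 4 collecting duct genes 0 passed, the nearest being the water channel Aqp2, 1.11 higher in BALB/c (adjusted p = 0.0529). Among 14 proximal tubule genes, 0 passed and the median was 0.07, and the summed linear signal of the list, 76969 to 80655 in BALB/c and 72396 to 83080 in DBA1, overlapped. Without DBA1 mouse 3, 1 of the 14 was higher and 1 was lower.

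Genes of macrophages and of antibody effector pathways gave few calls, each of them lower in BALB/c. Of 5 tested macrophage genes, 1 was lower in BALB/c, beside 3.21% of all tested probes, and the median was -1.02. The gene that passed was Cd14, the co-receptor for lipopolysaccharide, which injured tubules also make. It gave log2 signals of 7.11, 6.68, and 7.03 in BALB/c and of 9.04, 9.77, and 10.37 in DBA1 (difference -2.79, SE 0.54, adjusted p = 0.013). Without DBA1 mouse 3, its highest mouse, the difference was -2.47 (adjusted p = 0.0408), and without BALB/c mouse 2 the adjusted p was 0.0615. C1qa, C1qc, and Csf1r did not pass, at differences of -1.02, -1.38, and -0.41. Their mice did not overlap between the strains, as at 26.2% of all tested probes, and Cd68 overlapped. The summed linear signal of the 5 genes, which includes Cd14, was 472 to 769 in BALB/c and 1230 to 2311 in DBA1.

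Of 8 complement genes 0 passed, with a median of -0.92, and 1 was lower in BALB/c without DBA1 mouse 3. C3, the centre of the cascade, ranged from 11.80 to 12.12 in BALB/c and from 11.89 to 13.32 in DBA1, with overlap and the highest value in DBA1 mouse 3. Of 3 genes of Fc receptors and their signalling, Fcgr2b, an inhibitory receptor for IgG, was lower in BALB/c, beside 3.21% of all tested probes. It was 7.94, 8.01, and 8.13 in BALB/c and 8.97, 8.99, and 8.75 in DBA1 (difference -0.87, SE 0.13, adjusted p = 0.00245). Fcgr3, an activating receptor, differed by -0.62 with overlap (adjusted p = 0.425). Irf7, a driver of the interferon response, was 5.89, 5.75, and 5.90 against 7.24, 7.58, and 7.51 (difference -1.60, adjusted p = 0.0236, and 0.0564 without DBA1 mouse 3). The Irf7 call was also lost without any 1 BALB/c mouse or DBA1 mouse 2, with adjusted p-values up to 0.0914.

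Signalling and matrix genes gave single calls. Cxcl12, a chemokine that holds leukocytes and progenitors in tissue, was 10.10, 10.11, and 10.13 in BALB/c and 11.59, 11.16, and 11.39 in DBA1 (difference -1.26, SE 0.14, adjusted p = 0.00049). Its other tested probe differed by -0.77 and did not pass (adjusted p = 0.0628). Serpine2, an inhibitor of thrombin and plasminogen activators, was 8.77, 8.28, and 8.50 against 9.99, 10.32, and 10.67 (difference -1.81, SE 0.21, adjusted p = 0.000557). Sparc, a matrix protein, was 6.41, 6.82, and 6.25 in BALB/c and undetected in DBA1, at 5.21, 5.28, and 5.23 (at least 1.76-fold higher, adjusted p = 0.00194). Bik, which promotes cell death, was 8.37, 8.11, and 8.12 in BALB/c and 6.15, 5.84, and 6.03 in DBA1 (difference 2.19, SE 0.15, adjusted p = 1.34e-05). No mice overlapped for these 4 genes, as at 26.2% of all tested probes. Of 6 genes of tubule injury, 0 passed, and their median was -0.17. Timp1, an inhibitor of matrix proteases, was the nearest, at 6.09, 5.88, and 6.50 against 6.76, 7.90, and 7.91 (adjusted p = 0.117).

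**Figure D4:**
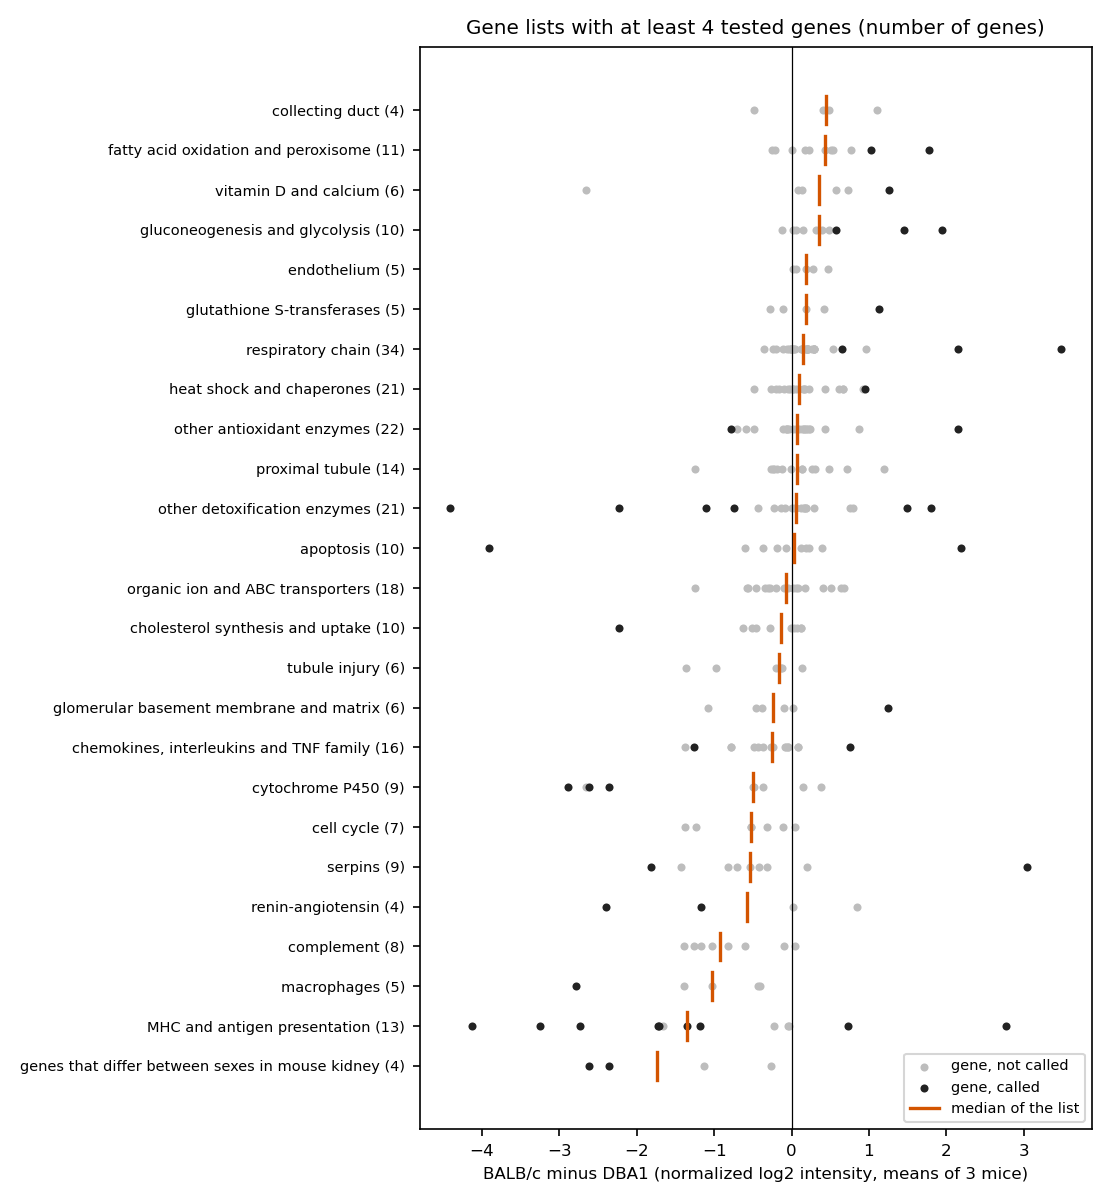
Difference between the strain means (BALB/c minus DBA1, log2) of each tested gene (points), grouped by list, for lists with at least 4 tested genes, with a bar at the median of each list and with genes past an adjusted p of 0.05 in black. The lists that lean furthest to DBA1 are those of genes that differ between sexes, the MHC, and macrophages, with medians of -1.74, -1.35, and -1.02. The P450 list leans less, at -0.49, and the medians of the proximal tubule and respiratory chain lists are 0.07 and 0.15.

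The genes that the study lists as related to oxidation were chosen on arrays that include these, so their direction is not independent evidence. Of 13 tested genes, 2 were higher in BALB/c (Oxr1 and Gstm2) and 3 were lower (Alox12, Aldh1a1, and 1 probe of Haao). Over all tested probes, 3.15% were higher and 3.21% were lower. Gstm2, a glutathione S-transferase that conjugates glutathione to reactive compounds, was read by 3 probes. They gave log2 signals of 12.29, 12.27, and 12.31 in BALB/c and 11.11, 11.06, and 11.31 in DBA1 for one, 10.81, 10.87, and 10.74 against 9.31, 9.23, and 9.45 for another, and 10.49, 10.67, and 10.31 against 9.11, 8.71, and 9.25 for the last. The differences of 1.13, 1.48, and 1.47 had adjusted p-values of 0.000822, 0.000126, and 0.000523. No mice overlapped for any of these probes, as at 26.2% of all tested probes. Oxr1, which protects cells from oxidative damage, was 8.96, 8.79, and 8.72 in BALB/c and 6.74, 6.67, and 6.60 in DBA1 (difference 2.15, SE 0.16, adjusted p = 3.08e-05). Alox12, a lipoxygenase that adds oxygen to arachidonic acid, was 7.17, 7.50, and 7.41 against 10.08, 9.54, and 9.64 (difference -2.39, SE 0.20, adjusted p = 6.53e-05).

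The other genes of these rows differed less. Sod3, the extracellular superoxide dismutase, differed by -0.49 (adjusted p = 0.1), Cyp4b1 by -0.37 (adjusted p = 0.189), Cyp51 by -0.66 (adjusted p = 0.272), and the 2 probes of Nosip by -0.43 and -0.39. Mgst1, a microsomal glutathione S-transferase, differed by -0.11 (adjusted p = 0.822). The metallothioneins Mt1 and Mt2 and the copper chaperone Atox1 were above DBA1 by 0.44, 0.88, and 0.22 without passing. Fmo4 was not tested, since it was detected in too few mice, at 5.02, 5.02, and 5.07 in BALB/c and 5.90, 5.17, and 5.69 in DBA1. Of 22 other antioxidant genes, 1 was higher and 1 was lower in BALB/c, with a median of 0.07, beside 6.36% of all tested probes past the threshold. The higher one was Oxr1, and the lower one was Nqo1, a quinone reductase (difference -0.78, adjusted p = 0.0165), whose call was lost without BALB/c mouse 2 or 3 or DBA1 mouse 1 or 2, with adjusted p-values up to 0.0809. Of the 22, 1 was higher and 2 were lower without DBA1 mouse 3.

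Probes of 1 gene did not always move together. Haao, which opens the ring of 3-hydroxyanthranilic acid in tryptophan breakdown, was the clearest case. The probe of the study's list was 8.50, 8.64, and 8.52 in BALB/c and 9.95, 9.66, and 9.21 in DBA1 (difference -1.05, adjusted p = 0.0177), whereas another was 9.80, 10.15, and 10.12 in BALB/c and 5.10, 5.78, and 5.09 in DBA1 (difference 4.70, adjusted p = 1.66e-06). That other probe was detected in 1 of 3 DBA1 mice. The last probe lay between 8.49 and 9.48 in all 6 mice (difference 0.02, adjusted p = 0.981), so no direction can be given for the gene. Among 476 genes with at least 2 tested probes, 68 had a probe past the threshold. In 13 of the 68 a further probe passed in the same direction, in 3 (Haao, H2-Q7, and Rbbp4, the last named after its values were seen) in the opposite direction, and in 52 no further probe passed. For a gene with 1 probe, a base that differs between the strains under the probe, a transcript form that the probe misses, and less RNA cannot be told apart.

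**Figure D5:**
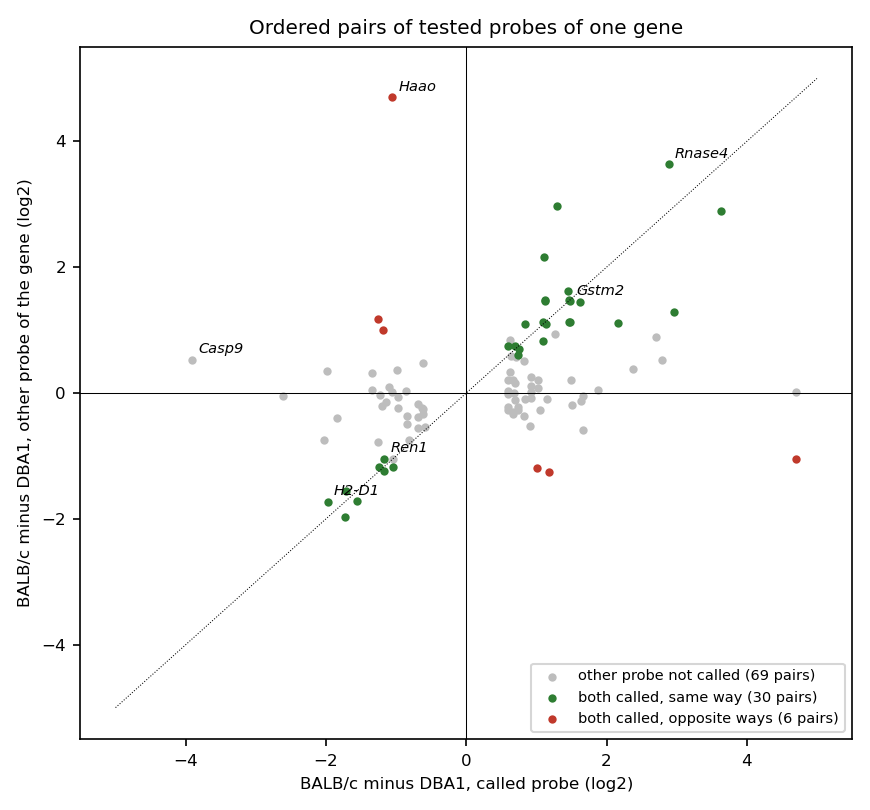
Difference between the strain means (BALB/c minus DBA1, log2) of a probe past the threshold (x axis) against that of another tested probe of the same gene (y axis), with each ordered pair of probes as a point. Both probes passed in the same direction in 30 pairs, along the diagonal, the other probe did not pass in 69 pairs, and both passed in opposite directions in 6 pairs, Haao among them.

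The level of 129/svj differed from that of DBA1 at some of these genes. Over all tested probes, 644 (4.37%) differed between DBA1 and 129/svj in the same limma fit. Of the 937 probes that differed between BALB/c and DBA1, 314 were among them, and of the 67 named probes 19 were. As both contrasts use the DBA1 mice, these counts are a description. Papss2, Folh1, H2-Eb1, and Kif3b were detected in every 129/svj mouse and in no DBA1 mouse, with adjusted p-values of 7.05e-08, 3.79e-06, 5.41e-06, and 2.57e-06. Aldh1a7 and Cox7a2l were detected in every DBA1 mouse and in no 129/svj mouse, with adjusted p-values of 1.39e-06 and 5.77e-06. Among probes detected in both strains, DBA1 minus 129/svj was 3.24 for Man2b1, 1.86 for Alox12, and -1.41 for Acaa2 on the log2 scale. Bat5 and Casp9 had 129/svj signals of 10.56, 10.44, and 10.47 and of 8.79, 8.74, and 8.81, next to those of DBA1.

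Other lists gave at most 1 gene in each direction, beside 3.15% higher and 3.21% lower over all tested probes. Of 10 apoptosis genes, 1 was higher (Bik) and 1 was lower (Casp9), and of 9 serpins 1 was higher (Serpina6) and 1 was lower (Serpine2). Of 16 chemokines, interleukins, and TNF family genes, 1 was higher (Tnfsf12-tnfsf13, by 0.76) and 1 was lower (Cxcl12), with 1 and 2 without DBA1 mouse 3, and of 21 heat shock and chaperone genes 1 was higher (Dnajc5, by 0.95). Genes of the endothelium, the cell cycle, the circadian clock, organic ion and ABC transport, and the immediate-early response had 0 past the threshold, although without DBA1 mouse 3 the transporters had 2 lower and the cell cycle genes 1 lower.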

How the data were processed

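Renal cortex RNA of 3 BALB/C, 3 DBA1, and 3 129/svj mice was analysed from 1 deposited table of 12 arrays. The authors deposited for each probe a signal intensity without normalization and a detection p-value. The array software version and scanner settings are not given in the sources used here. The table without these strains was used for gene symbols alone, through its search keys, which named 23100 probes (673 keys with several symbols were left unnamed). The number of arrays limits the precision.

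Background was corrected by normexp in limma, using detection p-values and an offset of 16, followed by quantile normalization within the table and log2 transformation, which compresses differences near background. Repeat arrays of mouse 1 were averaged. limma 3.58.1 in R 4.3.3 fitted 1 coefficient per strain over 9 mice, with Benjamini-Hochberg adjustment over all tested probes. The procedure was tested on simulated data. P-values measure the spread between mice of a strain, which share a genome.

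Gene lists, with 1 probe per gene (the brightest tested), are described by counts and medians. Genes named were the 8 largest each way among probes detected in all mice, the 6 largest each way among probes detected in 1 strain, up to 4 list members with the smallest adjusted p, list-defining members, and the study's oxidation-related rows. The comparison and the lists were chosen with earlier results of these data known. Alternatives covered background correction, normalization, filter, repeat arrays, variance model, the methods' t-test, minimum size, replicate block, and each mouse left out. Probe sequences and some genes are not reported here.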

Additional observations from a re-analysis of the deposited data

How the results depend on the processing

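From 937 probes (464 higher and 473 lower in BALB/c), the number past the threshold became 586 (295 and 291) with probes detected in all 6 mice, where fewer probes were tested, 538 (268 and 270) with a difference of at least 2-fold, 412 (209 and 203) with the methods' t-test and Benjamini-Hochberg adjustment, and 2637 (1292 and 1345) with that t-test unadjusted. The 227 probes detected in 1 strain alone became 117 with the adjusted t-test. The cause was not tested. When single mice were left out, the numbers were 506 to 933 in all, 270 to 459 higher, 236 to 474 lower, 168 to 220 among the probes detected in 1 strain alone, and 15 to 23 for DBA1 against 129/svj among the named probes. The lowest total, 506, was without BALB/c mouse 2, and 576, 617, and 592 probes passed without BALB/c mouse 1, BALB/c mouse 3, and DBA1 mouse 2. The totals were 793 to 1006 under the other settings, but without background correction 249 probes, in place of 538, passed with at least a 2-fold difference. The replicate numbers share only a number between the strains, since the deviations of same-numbered mice correlated at -0.27, 0.14, and -0.26 and 1 of 6 mice correlated best with its own number, and the fit with the replicate block gave 938 probes, 217 probes detected in 1 strain alone, and 21 probes for DBA1 against 129/svj.

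Of the 58 named probes past the threshold, 33 passed under each alternative run and 25 were lost in at least 1, while 0 changed direction. Among these 58, the calls lost without at least 1 mouse were those of Calb1, Cd14, Ces3, Cox8b, Decr2, Dnajc5, G6pc, Haao, Irf7, Ndufb8, Nqo1, Pvalb, Serpina6, Tnfsf12-tnfsf13, and the first Rnase4 probe. Calls of other probes described here, such as those of H2-D1, Cd74, H2-T10, H2-Ke2, and Akr1e1, were not followed singly. Over the 17 alternatives, the MHC list had 1 to 2 genes higher and 4 to 8 lower. The other detoxification enzymes had 0 to 3 higher and 1 to 5 lower. Signal over background limits what can be read, since 30.5% to 32.9% of the probes of an array were detected.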

Other observations

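The heavy chain probe of the immunoglobulin VJ558 family (Igh-VJ558), chosen after its values were seen and outside the rule because it was detected in 2 of 3 BALB/c mice, differed by -4.64 on the log2 scale, with means of 6.27 ± 0.54 in BALB/c and 10.91 ± 0.73 in DBA1 (SD, n = 3 each, adjusted p = 0.00109 from limma). The strains carry different heavy chain genes, and none of 6 lymphocyte marker genes with a probe passed the detection filter. A difference in these heavy chain genes and a difference in cells cannot be told apart here.

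A probe named Per was at 9.20 in DBA1 mouse 3 and between 5.63 and 5.86 in the other 5 mice of the 2 strains. It was chosen after its values were seen.

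Called genes were set in chromosome order by RefSeq, after the results were known and with no test. Of 4425 genes placed, 347 (7.84%) had a probe past the threshold, and the share was highest on chromosome 17, which carries the MHC, at 24 of 202 genes (11.9%), and on chromosome 4, at 33 of 281 (11.7%). A neighbouring gene past the threshold was found for 87 of the 347 (25.1%) and for 565 of the 4078 other genes (13.9%). There were 7 runs of 3 adjacent tested genes. Those of chromosome 17 were Pfdn6, H2-K2, and H2-K1, and H2-D1, H2-Q6, and H2-Q7. Rassf8, Sspn, and Itpr2 of chromosome 6 were all higher in BALB/c, by 2.33, 2.30, and 1.66 on the log2 scale.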
